A study of Mus musculus with 7 samples.

Results

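Integrins and the discoidin domain receptor Ddr2 are the cell surface receptors through which growth plate cells hold and sense their collagen and fibronectin matrix. A set of 10 receptor genes was followed: the alpha subunits Itga1, Itga2, Itga5, Itga6, Itga10, Itga11 and Itgav, the beta subunits Itgb1 and Itgb5, and Ddr2. They were chosen by gene symbol, and all 10 were found among the 43346 genes of the deposited counts. All 10 also passed the filter on low values, which 20239 genes passed. They were measured in tibial growth plates, proximal and distal, of 7 male F1 mice aged 21 d from a cross of C57BL/6J (B6) and CAST/EiJ (CAST), numbered 1, 2, 3, 4, 5, 7 and 8. No treatment is given for the mice, which form 1 group, so each gene was compared between the B6 and CAST alleles of the same animals. The study asked which genes of a femur length locus on chromosome 9, Feml2, are expressed unequally from the 2 alleles, and of the 10 receptors Itga11 alone lies in it. Depth was 14098019 to 37849667 counts per mouse, and the lowest total of any of the 10 receptors in a mouse was 142 counts, for Itga2. The sample titles call the material chondrocytes, but whole dissected growth plates were homogenized, so other cell types of the dissected tissue contribute RNA.

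An integrin is a pair of 1 alpha and 1 beta subunit, and the pair decides which ligand is bound. Itga1, Itga2, Itga10 and Itga11 pair with Itgb1 and bind collagens through an inserted domain that holds a metal ion. Itga10 is known as the collagen-binding alpha subunit of cartilage, whereas Itga11 is found on fibroblasts and other mesenchymal cells. Itga5 pairs with Itgb1 as the main fibronectin receptor, and Itga6 pairs with Itgb1 or Itgb4 to bind laminins. Itgav pairs with several beta subunits, Itgb5 among them, to bind vitronectin and other ligands with an RGD sequence. Ddr2 is no integrin: it is a receptor tyrosine kinase that is activated by fibrillar collagen, and its loss in mice and humans causes short limbs.

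The 4 collagen-binding alpha subunits are shown first by the stretch of their mRNA that codes for the metal-binding loop, because this is the site that contacts collagen and because related coding sequence decides whether reads can be told apart. The capitals mark the 15 bases that code for the loop itself, and the sequences were read 5′ to 3′ from the GENCODE M21 transcripts (codons 178 to 186 of Itga1, 177 to 185 of Itga2, 173 to 181 of Itga10 and 170 to 178 of Itga11).
Itga1: GATGGCTCCAACAGCatctacccctgg
Itga2: GATGAATCAAACAGTatttatccttgg
Itga10: GATGGCTCCAACAGTatctatccctgg
Itga11: GATGGCTCCAACAGCatctacccctgg
Itga1 and Itga11 were identical over these 27 bases. Itga10 differed from either at 2 bases. Itga2 differed from Itga10 at 5 bases and from Itga1 and Itga11 at 7 bases. Identical stretches between the 4 genes stayed short: no transcript of one shared a window of 75 bases, the read length, with another, and at 25 bases the most shared was 9 windows, between Itga1 and Itga11.

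Other genes did share whole read lengths with some of the 10 receptors. Itga2, Itga5, Itga11 and Itgb1 shared no 75-base window with any other annotated gene. The share of windows found in another gene on the same strand was 29.0% for Itga10, all in Gm42957, which was not analysed here. It was 6.48% for Itgb5, all in Gm38317, which had at most 3.84 counts in any mouse. For Itga6 and Itga1 the share was 4.46% and 2.92%. Itgav shared 5.14% of its windows with the opposite strand of Gm13684, which had 14.9 to 84.0 counts per mouse. Totals that were not whole numbers were found in 7 mice for Itga6, Itga10 and Itgav, in 6 for Itgb5 and in 5 for Itga11 and Ddr2. Itga11 had such totals though it shared no window. Itga1 had whole totals in every mouse, and the gene that shared its windows, Gm49395, was not analysed here. The windows were exact matches, whereas alignment allowed 3 mismatches, so they cannot decide where such totals come from.

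At the level of whole genes, Itgb5 and Itgb1 led the 10 receptors, followed by Itga10, and Itga1 and Itga2 came last. Level here is the CPM of both alleles together (counts relative to library size, scaled by TMM factors that correct for library makeup) per kilobase of exon, written CPM per kb. In a bulk sample, fewer cells of a type and less RNA per cell cannot be told apart.

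The beta subunits were the most abundant of the 10. Itgb5 (chromosome 16, 33829665 to 33949338, + strand, GRCm38, as for all positions here) had 40.0 ± 4.03 CPM per kb (SD, n = 7), with a lowest mouse of 36.2, a median of 39.5 and a highest of 47.8. Itgb1 (chromosome 8, 128685654 to 128733200, + strand) had 34.1 ± 3.44 (SD, n = 7), from 29.4 over a median of 33.9 to 40.8 CPM per kb. The ranges of both genes overlapped, yet Itgb5 was above Itgb1 in 6 of 7 mice.

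Among the collagen-binding subunits, Itga10 stood well above the others. Itga10 (chromosome 3, 96645584 to 96664519, + strand) had 27.0 ± 1.69 CPM per kb (SD, n = 7), from 25.2 over a median of 26.4 to 29.7. Itga11 (chromosome 9, 62677826 to 62783982, + strand) had 14.7 ± 2.86, from 11.5 over a median of 14.8 to 18.7 CPM per kb. The lowest mouse for Itga10 was above the highest mouse for Itga11. Itga2 (chromosome 13, 114833081 to 114932100, - strand) had 2.01 ± 0.404 CPM per kb and Itga1, its neighbour on the same strand (114953096 to 115101964), had 1.44 ± 0.159 (SD, n = 7 for each).

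**Figure D1:**
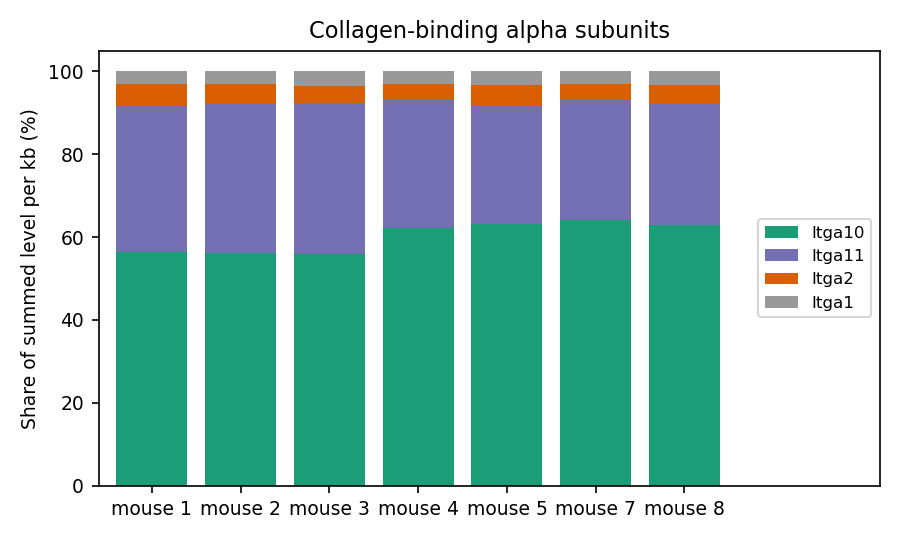
Stacked bars give, for each of the 7 mice, the share in percent of each collagen-binding alpha subunit in their summed level (CPM per kb). Itga10 takes 55.9% to 64.2%, Itga11 28.6% to 36.4%, and Itga1 and Itga2 together fill the narrow top of every bar.

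Itga10 thus made up 60.1% ± 3.80 (SD, n = 7) of the summed level of the 4 collagen-binding subunits. Itga11 made up 32.3% ± 3.51, Itga2 4.43% ± 0.692 and Itga1 3.18% ± 0.215 (SD, n = 7 for each). The level of Itga10 was 1.89 ± 0.315 times that of Itga11 (SD, n = 7). Itgb1, the only beta subunit these 4 are known to pair with, had 0.760 ± 0.0904 times their summed level, and the ratio was below 1 in all 7 mice (0.617 to 0.865).

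The receptors for fibronectin, laminin and RGD ligands lay between these. Itgav (chromosome 2, 83724397 to 83806916, + strand) had 15.4 ± 2.84 CPM per kb (SD, n = 7), with 12.7 to 13.9 in mice 4, 5, 7 and 8 and 16.9 to 19.2 in mice 1, 2 and 3. Its partner Itgb5 had 2.65 ± 0.380 times the level of Itgav (SD, n = 7). That ratio depends on the length used: per kilobase of the longest transcript, Itgb5 had a mean of 43.3 and Itgav of 23.4. Itga5 (chromosome 15, 103344286 to 103366763, - strand) had 12.1 ± 1.94 and Itga6 (chromosome 2, 71745616 to 71858416, + strand) had 6.06 ± 0.594 CPM per kb (SD, n = 7 for each). Ddr2 (chromosome 1, 169972307 to 170110762, - strand) had 11.3 ± 1.07 CPM per kb (SD, n = 7), from 9.99 over a median of 11.1 to 13.1. That was 2.42 ± 0.300 times the level of Ddr1, the epithelial member of the family, and 0.420 ± 0.0392 times that of Itga10 (SD, n = 7 for each).

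**Figure D2:**
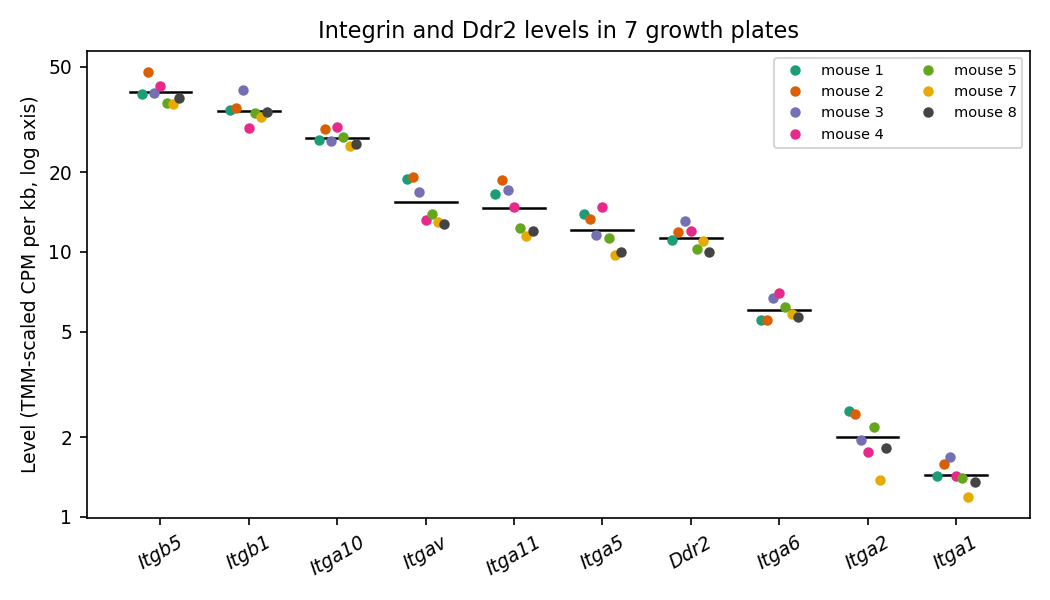
Level of each of the 10 receptors (CPM per kb, log axis) in each of 7 mice (coloured points), with the mean as a bar. Itgb5, Itgb1 and Itga10 lie above 25 CPM per kb in every mouse, and Itga1 and Itga2 below 3.

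Neighbours in this order were compared within each mouse, so that library size cancels. Of the 9 neighbouring pairs, 7 differed at an adjusted p under 0.05 when the signs of the log2 ratios were flipped in every possible way (exact two-sided permutation test, Benjamini-Hochberg over 9 pairs). Ddr2 exceeded Itga6 in 7 of 7 mice, by 0.90 ± 0.14 on the log2 scale, and Itga10 exceeded Itgav in 7 of 7, by 0.83 ± 0.25 (for each, exact permutation p = 0.0156, the smallest that 7 mice allow, adjusted p = 0.0281). Itgb5 over Itgb1, by 0.23 ± 0.20, and Itgb1 over Itga10, by 0.33 ± 0.19, passed with 6 of 7 mice each (exact permutation p = 0.0312, adjusted p = 0.0402). Itgav and Itga11 did not differ beyond their spread (0.07 ± 0.13, 5 of 7 mice, exact permutation p = 0.172, adjusted p = 0.193), nor did Itga5 and Ddr2 (0.08 ± 0.21, 5 of 7 mice, exact permutation p = 0.391, adjusted p = 0.391). The order depends on the length used: per kilobase of the longest transcript, 6 of the 10 receptors kept their place and 3 of 9 pairs differed, with Itga6 at 12.7 beside Ddr2 at 12.2, and Itga1 at 2.44 above Itga2 at 2.01. With that length Itgav stood at 23.4, so Itga10 exceeded it by 0.26 ± 0.25 in 6 of 7 mice (exact permutation p = 0.0625, adjusted p = 0.0804). Itgav then exceeded Itga11 by 0.63 ± 0.13 in 7 of 7 mice (exact permutation p = 0.0156, adjusted p = 0.0469). The separations of Itgb5 from Itgb1 and of Itga11 from Itga5 also missed the threshold there (adjusted p = 0.0562 and 0.0703 by the exact permutation test), and that of Itgb1 from Itga10 passed it (0.0469).

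The 10 receptors differed in how much they varied between mice. The coefficient of variation of Itga10 was 6.26%, and 8.99% of the 9942 genes that reached 100 counts in all mice had a lower one. Itga2 and Itga11 lay at the other end, with 20.1% and 19.4%, above 89.2% and 87.7% of those genes. The median coefficient of variation of those genes was 11.3%. Itga11 was lowest in mice 7, 8 and 5 (11.5, 12.0 and 12.3 CPM per kb) and between 14.8 and 18.7 in the other 4 mice.

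Between alleles, the clearest difference was in Itgb5, which came more from the B6 allele, and a smaller one was seen in Itga11, which came more from the CAST allele. These were the 2 of 10 receptors called at a false discovery rate (FDR) under 0.20 (edgeR likelihood-ratio test, Benjamini-Hochberg over 20239 genes). The fit had no block for the mouse, so the 2 alleles of an animal were not paired in it. Of all genes tested, 34.5% were called, 16.0% with the CAST allele higher and 18.5% with the B6 allele higher. The share was 32.8% of autosomal genes and 34.0% of genes that reached 100 counts in all mice, as all 10 receptors did. A count of 2 in 10 is therefore no more than the background. Both called receptors had the same direction in all 7 mice, which held together with a call for 20.9% of all genes tested. The median log2 fold change of CAST to B6 was 0.02 over the 10 receptors and 0.01 over all genes tested. Nothing here says whether the mice are littermates, and p-values measure only the spread among these 7 animals. The X-linked gene Flna came almost wholly from B6 in all 7 males (CAST share 0.103% ± 0.0361, SD), and a male has only the maternal X. The B6 allele was therefore the maternal one in every mouse. Strain and parent of origin of an allele cannot be told apart in this design.

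Itgb5 had more B6 than CAST counts in every mouse. The B6 allele had 1136 counts in the lowest mouse, a median of 2520 and 3233 in the highest, and the CAST allele had 730, 1511 and 1837. As raw counts, which follow the depth of each mouse, the 2 ranges overlap, but within a mouse B6 was always above CAST. The CAST allele gave 36.7% ± 1.78 of Itgb5 counts (SD, n = 7), from 33.4% in mouse 4 (95% Wilson interval 31.6% to 35.1%) to 39.1% in mouse 7 (36.9% to 41.4%). Such intervals cover counting error only. They take the estimated counts as if each read had been assigned to 1 allele, though reads that matched both were divided. The fitted log2 fold change was -0.77 (SE 0.10, FDR = 7.53e-14), and the mean log2 ratio over mice was -0.79 ± 0.11 (SD, n = 7, exact two-sided sign-flip permutation p = 0.0156). Of the 9632 autosomal genes that reached 100 counts in all mice, 3.82% had a fold change of this size or larger in either direction.

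Itga11 went the other way, by less. It was called here at an FDR under 0.20, but the study does not list it among its unequally expressed Feml2 genes at that threshold. The FDR here was adjusted over 20239 genes, and the study does not state that number for its own. The B6 allele had 404 counts in the lowest mouse, a median of 1065 and 1286 in the highest, and the CAST allele had 450, 1356 and 1557. The CAST allele was higher in 7 of 7 mice and gave 54.5% ± 1.32 of the counts (SD, n = 7). The lowest share, 52.7% in mouse 7 (95% Wilson interval 49.3% to 56.0%), rested on 854 counts and its interval includes equal shares. The highest was 56.8% in mouse 5 (54.9% to 58.8%). The fitted log2 fold change was 0.28 (SE 0.14, FDR = 0.160), and the mean log2 ratio was 0.26 ± 0.08 (SD, n = 7, exact permutation p = 0.0156). This call lay close to the threshold: without mouse 1, 4, 5 or 8 the FDR was 0.223, 0.226, 0.240 and 0.205. With the mouse as a block the FDR was 7.24e-19 by the likelihood-ratio test and 0.000385 by the quasi-likelihood test.

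The CAST allele of Itga11 also carries a coding change, printed here because it lies inside the mRNA compared. The study's list of variants gives it as a missense change, G62767727A (the B6 base, the position on chromosome 9 of GRCm38, the CAST base). It lies in exon 20 of 30 of the annotated transcript, in the second base of codon 847. The 29 bases around it, chr9:62767713-62767741 on the + strand, are shown with the variant base in capitals.
B6: cacgctggagaacaGaggagagaatgctt
CAST: cacgctggagaacaAaggagagaatgctt

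Ddr2 differed little but in 1 direction. The B6 allele had 744 counts in the lowest mouse, a median of 1687 and 1958 in the highest, against 735, 1458 and 1766 for the CAST allele. The B6 allele was higher in 7 of 7 mice, by as little as 0.01 on the log2 scale in mouse 4 and by as much as 0.21 in mouse 2. The CAST share was 48.3% ± 1.21 (SD, n = 7), and the mean log2 ratio was -0.10 ± 0.07 (exact permutation p = 0.0156). In the comparison without a block Ddr2 was not called (log2 fold change -0.08, FDR = 0.646). A block for the mouse gave the same size and a call, with -0.09 (FDR = 0.00601) by the likelihood-ratio test. By the quasi-likelihood test the block gave -0.08 (FDR = 0.056). The same direction in all 7 mice was seen for 24.6% of all genes tested and 30.6% of those that reached 100 counts in all mice, beside 3 of the 10 receptors.

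**Figure D3:**
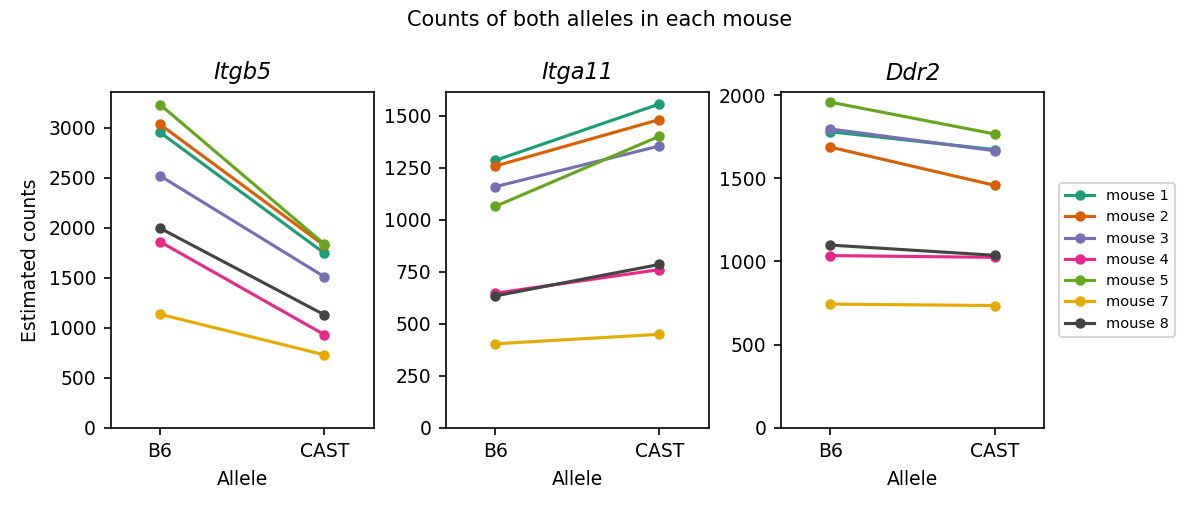
Estimated counts of the B6 and CAST alleles of Itgb5, Itga11 and Ddr2, with a line for each of 7 mice and each vertical axis starting at 0. Every line falls towards CAST for Itgb5 and Ddr2 and rises for Itga11, and the slopes for Ddr2 are shallow.

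The other 7 receptors were not called without the block. Itga1 had a log2 fold change of 0.14 (FDR = 0.388), with the CAST allele higher in 6 of 7 mice and a mean log2 ratio of 0.14 ± 0.17 (SD, n = 7, exact permutation p = 0.0625). With the mouse as a block Itga1 was called (FDR = 0.0985 by the likelihood-ratio test and 0.1415 by the quasi-likelihood test). With the block, 4 of 10 receptors were called by either test, against 45.3% and 40.3% of all genes. Itga10 had 1882 ± 607 CAST and 1848 ± 614 B6 counts (SD, n = 7) and a log2 fold change of 0.04 (FDR = 0.837). The log2 fold changes of Itga2, Itgav, Itga6, Itga5 and Itgb1 lay between -0.04 and 0.10, with FDR values from 0.765 to 1, and none of these 5 had the same direction in more than 5 of 7 mice. Itga1 and Itga2 also carried the fewest counts, at least 321 and 142 per mouse.

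**Figure D4:**
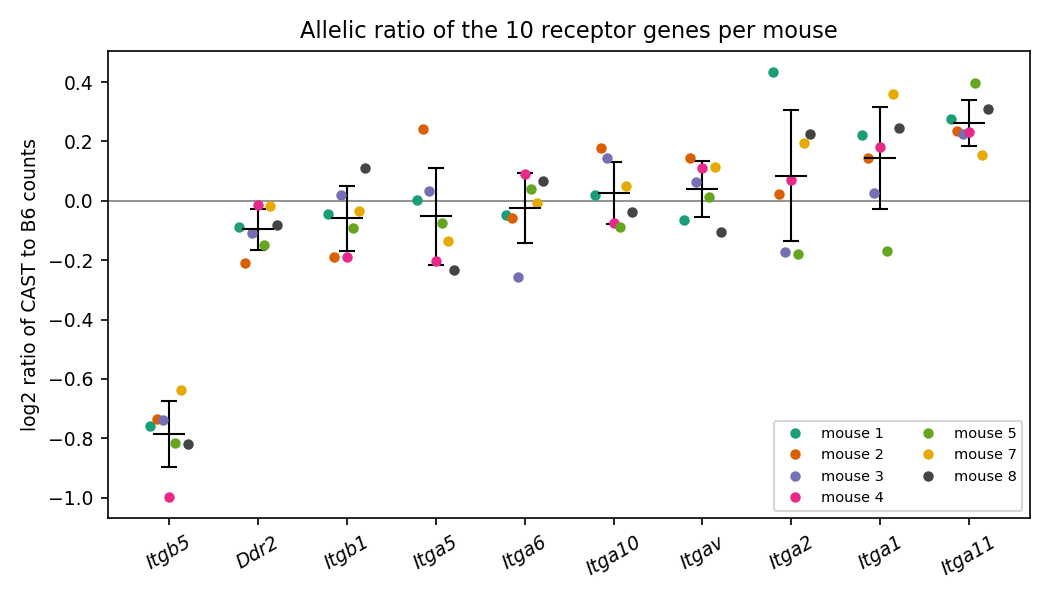
Log2 ratio of CAST to B6 counts of each of the 10 receptors in each of 7 mice (coloured points), with mean and SD (bars), where 0 means equal counts. Itgb5 lies below -0.6 in every mouse, Itga11 above 0.1 and Ddr2 just below 0, and the points of the other 7 genes fall on both sides of 0.

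The known partners of the 2 called receptors were not called. Itgb1 had 1833 ± 652 CAST and 1907 ± 678 B6 counts (SD, n = 7) and a log2 fold change of -0.04 (FDR = 0.893), beside 0.28 for its partner Itga11. Whether these differ from each other was not tested. Itgav had 2277 ± 933 CAST and 2228 ± 938 B6 counts and a log2 fold change of 0.06 (FDR = 0.887), beside -0.77 for Itgb5.

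Of the other integrin subunits and Ddr1, a list of 18 genes, 10 were called, 6 with CAST and 4 with B6 higher, and all 10 had the same direction in 7 of 7 mice. Of all genes tested 34.5% were called, and 20.9% were called with 1 direction in all mice. The median log2 fold change of the list was 0.08, beside 0.01 for all genes tested. Itgb3, the other main partner of Itgav and a marker subunit of osteoclasts and platelets, had 38.4 ± 6.27 CPM per kb, 0.965 ± 0.170 times the level of Itgb5 (SD, n = 7). Its allelic difference was opposite in sign to that of Itgb5, with a log2 fold change of 0.26 (FDR = 0.131). Itga9, which binds tenascin C and pairs with Itgb1, had a log2 fold change of 0.41 (FDR = 0.000104) at 7.33 ± 0.572 CPM per kb. Itga3, a laminin receptor subunit, was called at 0.23 (FDR = 0.192) on 145 ± 45.8 CAST and 125 ± 42.1 B6 counts.

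Several called subunits belong to blood cells. Itgax, a subunit of dendritic cells and macrophages, had a log2 fold change of -0.86 (FDR = 2.65e-08), Itgb7, a lymphocyte subunit, -0.61 (FDR = 0.000359), and Itga2b, the platelet subunit, -0.42 (FDR = 0.0918). Itgad and Itgal, both leukocyte subunits that pair with Itgb2, were higher from CAST, at 0.64 (FDR = 0.0467) and 0.46 (FDR = 0.0644), while Itgb2 itself was not called (-0.10, FDR = 0.708). Itgb8 had the largest CAST excess, 0.97 (FDR = 0.000276), at only 0.428 ± 0.127 CPM per kb, and the muscle laminin receptor Itga7 had -0.33 (FDR = 0.0313). The 7 remaining subunits with at least 10 counts in every mouse, Itga4, Itga8, Itgam, Itgb2, Itgb4, Itgb6 and Ddr1, had log2 fold changes between -0.20 and 0.22 and were not called. With the mouse as a block 12 of the 18 were called, beside 45.3% of all genes.

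**Figure D5:**
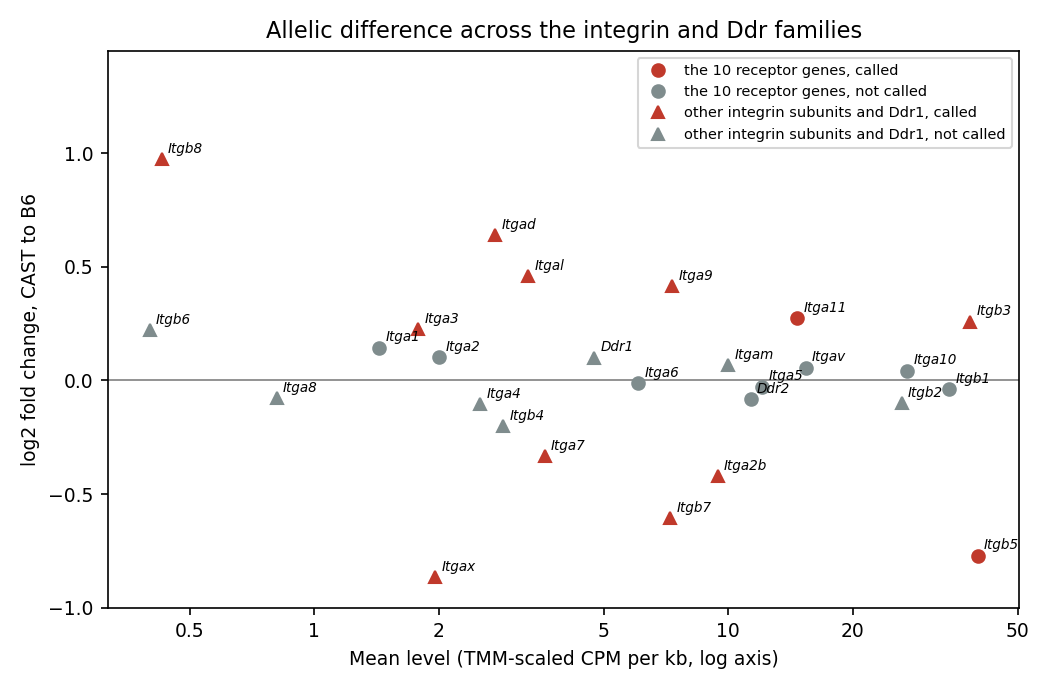
Fitted log2 fold change of CAST to B6 against mean level (CPM per kb, log axis) for the 10 receptors (circles) and 17 other genes of both families, Ddr1 included (triangles), with red for an FDR under 0.20. Itgb5 has both the highest level and, at -0.77, 1 of the largest B6 excesses, beside Itgax at -0.86.

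Inside the cell, integrin tails are switched on by talins and kindlins and tied to actin through focal adhesions. Of 16 activators and linkers, 15 were tested and 6 were called, 3 in each direction, near the 34.5% of all genes. The X-linked gene Flna is among the 3 higher from B6. In a fit of autosomal genes only, 14 were tested and 5 called, 3 with CAST and 2 with B6 higher, beside 32.2% of genes. With the mouse as a block 9 of 15 were called, beside 45.3%. Fermt2, the kindlin of mesenchymal cells, was higher from CAST (log2 fold change 0.39, FDR = 0.00280), as was the tetraspanin Cd151, a partner of laminin-binding integrins (0.32, FDR = 0.0141). Itgb1bp1, an inhibitor of Itgb1 activation, was higher from B6 (-0.35, FDR = 0.0107), and so was the talin Tln2 (-0.25, FDR = 0.0358). Flna lies on the X chromosome, of which a male has only the maternal copy, and its -9.91 is no comparison of 2 expressed alleles.

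Of 26 focal adhesion genes 7 were called, 3 with CAST and 4 with B6 higher, beside 34.5% of all genes. With the mouse as a block 14 were, beside 45.3%. The actin crosslinker Actn4 had 0.52 (FDR = 2.50e-09), the tensin Tns3 0.35 (FDR = 0.000984) and the kinase Src 0.31 (FDR = 0.00928), all higher from CAST in 7 of 7 mice. The adaptor genes Lims2 and Lims1, whose products join the complex at the integrin tail, were both higher from B6, with log2 fold changes of -1.01 (FDR = 3.23e-15) and -0.23 (FDR = 0.0614). The median log2 fold change was 0.02 for the activators and linkers and 0.01 for the focal adhesion genes.

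The collagen and fibronectin ligands were present at far higher levels than the 10 receptors, and vitronectin was not. Col1a1 and Col2a1, the main fibrillar collagens of bone and cartilage, had 7091 ± 1874 and 5814 ± 1570 CPM per kb (SD, n = 7). Col10a1, the collagen of hypertrophic cartilage, had 1059 ± 251 and fibronectin, Fn1, had 385 ± 70.0. Vtn, the vitronectin that the Itgav and Itgb5 pair binds, had 1.19 ± 0.263 CPM per kb, and Spp1, an RGD protein of bone, had 339 ± 65.3. Of 24 matrix ligand genes 9 were called, 6 with CAST and 3 with B6 higher, beside 34.5% of all genes. With the mouse as a block 20 were, beside 45.3%. That share covers genes of any depth, and none was computed with the block for genes as deep as these. Col9a1, with at least 34905 counts per mouse, had a mean log2 ratio of only 0.03, yet CAST was higher in 7 of 7 mice. The part of depth in the count of 20 was not tested. Col6a2, Col4a1 and Col6a1 were higher from CAST, with log2 fold changes of 0.41 (FDR = 0.0306), 0.34 (FDR = 0.0303) and 0.29 (FDR = 0.126). Tnc, Nid1 and Lamb1, genes for tenascin C, nidogen and a laminin chain, were higher from B6, with -0.42 (FDR = 0.0138), -0.39 (FDR = 0.000297) and -0.25 (FDR = 0.128). The median over the list was 0.04.

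Markers of 10 cell types were set beside the levels, since these receptors are shared by many cells. All genes of every list had at least 10 counts in every mouse. Some sums rested largely on 1 gene: Hbb-bs made up 83.8% of the erythroid sum and Postn 58.2% of the tendon and fibroblast sum. Ttn made up 52.4% of the muscle sum and Bglap 50.1% of the osteoblast sum. In the other lists the top gene held at most 42.6%. Summed chondrocyte markers ranged from 18980 CPM in mouse 1 to 36010 in mouse 4. Markers of other cells were present as well: 6720 to 13190 CPM for fast skeletal muscle, 3786 to 9136 for erythroid cells, 4140 to 6291 for osteoclasts, 2744 to 3667 for osteoblasts, 1533 to 3070 for neutrophils, 406 to 657 for tendon and fibroblasts, 370 to 468 for endothelium, 153 to 356 for B lineage cells and 57.7 to 114 for megakaryocytes.

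None of 100 relations between a receptor's level and a marker sum passed an adjusted p of 0.05 by Pearson's r or Spearman's rho. At an unadjusted p under 0.05 there were 18 by r, 6 of them with Itga11, and 17 by rho. Itga1 and the megakaryocyte markers had r = -0.84 (n = 7, permutation p = 0.0153) and rho = -0.86 (permutation p = 0.0238), with adjusted p values of 0.257 and 0.228, and r was -0.96 without the 2 mice farthest from the median marker sum. Itga10 and the chondrocyte markers had r = 0.76 (n = 7, permutation p = 0.0335) and rho = 0.71 (permutation p = 0.0881), with adjusted p values of 0.257 and 0.326, and r was 0.78 without the 2 mice farthest from the median. For Itga11 the mice fell into 2 separate sets: mice 5, 7 and 8, with 11.5 to 12.3 CPM per kb of Itga11, had erythroid sums of 6749 to 9136 CPM and endothelial sums of 370 to 411 CPM. The other 4, with 14.8 to 18.7 CPM per kb, had 3786 to 5645 and 440 to 468 CPM. The split was not particular to these lists. B lineage sums were 281 to 356 CPM in mice 5, 7 and 8 and 153 to 235 in the other 4. Megakaryocyte sums were 90.4 to 114 and 57.7 to 77.85 CPM. Itga11 with the erythroid and with the endothelial markers had the lowest unadjusted p by r. With mice in separate sets no correlation over all 7 is given for these pairs. The part of any cell type in the level of Itga11 was not tested. By rho the lowest unadjusted p was that of Itgb5 and the megakaryocyte markers (rho = -0.89, n = 7, permutation p = 0.0123, adjusted p = 0.228). Their r was -0.75 (permutation p = 0.0419, adjusted p = 0.257), and -0.68 without the 2 mice farthest from the median. Mice 5, 7 and 8 were also apart in Itga1 (1.189 to 1.405 CPM per kb, against 1.423 to 1.685 in the other 4). The same held for Itgb5 (36.2 to 38.1 against 39.5 to 47.8). The coefficients of Itga1 and Itgb5 with the megakaryocyte markers therefore cannot be told apart from a difference between these sets of mice.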

How the data were processed

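Growth plate RNA (200 ng, depleted of rRNA, stranded libraries) was sequenced as 2 × 75 bp reads. The authors aligned reads with Bowtie, allowing at most 3 mismatches, to a joint B6 and CAST transcriptome built on mm10, and EMASE divided reads that matched more than 1 allele or gene. The deposited values are therefore estimated counts per gene and allele, not normalized and not always whole. Whether counting used strand, and the annotation release, are not given in the sources used here.

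Depth was 14098019 to 37849667 counts per mouse (median 27603769). No pair of mice agreed within sampling noise (21 pairs, chi-square divided by its degrees of freedom 14.4 to 96.4). Names, positions and exon lengths come from GENCODE M21, which holds 42462 of the 43346 identifiers. Sequences come from its transcripts (no protein sequences were used) and, for the variant, the study's list. Totals counted as whole lay within 1e-04 of a whole number.

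Counts were rounded to 9 decimals, genes were kept if either allele was above 0 in each mouse, and counts rounded to whole numbers were tested with edgeR 4.0.16 (limma 3.58.1, R 4.3.3; TMM, estimateDisp, glmFit, glmLRT, after the study's methods), which was also tested on simulated data. Genes were called at an FDR under 0.20. The SE given for a fitted log2 fold change is its absolute value divided by the square root of the likelihood-ratio statistic. Sign-flip tests used a pseudocount of 0.5. Alleles are paired by animal in the deposited columns: deviations of both alleles of a mouse from the allele means correlated at 0.047 to 0.33 over 15111 genes, and those of different mice at -0.28 to 0.24. Alternatives were the quasi-likelihood test, DESeq2 1.42.0, the mouse as a replicate block, other library sizes, filters, thresholds and lengths, unrounded counts, and each mouse left out. The receptors and gene lists were chosen with earlier results of these data known.

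Named were the 10 receptors, other family genes that reached 10 counts in all mice, up to 3 called genes per direction of each other list with 1 direction in all mice, and for each receptor the 3 protein-coding genes of most similar level. Markers and ligands were named by their lists. Femur data were not analysed here.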

Additional observations from a re-analysis of the deposited data

Results flagged for a closer look

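Mouse 3 lay apart from the other 6 for the allelic ratio of Itga6. Its log2 ratio of CAST to B6 was -0.26, the next lowest was -0.06 and the highest was 0.09. The gap was 0.57 of the whole range, just over Dixon's 95% limit for 7 samples. The CAST share in mouse 3 was 45.5% (95% Wilson interval 43.2% to 47.9%). Of 20 sets examined, the levels and the allelic ratios of the 10 receptors, this was the 1 that passed, and chance alone gives about 1 in 20.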

How the results depend on the processing

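Itgb5 kept its direction and its call in all 17 alternatives (log2 fold change -0.79 to -0.73, highest FDR 1.01e-05). Itga11 kept its direction in 17 and its call in 11. It was lost with 1 library size per mouse (0.26, FDR = 0.222), at an FDR under 0.05 (0.28) and without mouse 1, 4, 5 or 8 (0.26 to 0.29 over the 7 left out, FDR = 0.137 to 0.240). With the mouse as a replicate block, Itga1 (0.14 by the likelihood-ratio and 0.15 by the quasi-likelihood test) and Ddr2 (-0.089 and -0.083) were called, so that 4 and 4 receptors were called, as were 14 and 14 focal adhesion genes and 20 and 20 matrix ligands. The block changed no other call among the receptors. At an FDR under 0.05 the calls were 1 receptor, 6 other subunits, 4 focal adhesion genes and 5 matrix ligands, beside 23.6% of all genes, and 1 receptor was called with 1 library size per mouse, beside 32.0%. With each mouse left out the receptors called were 1 to 2. Values near 0 changed sign: Itga6 was 0.0032 with unrounded counts and -0.034 to 0.033 with each mouse left out, and Itga5 was -0.081 to 0.0061 with each left out. Among other named genes, calls of Itga3 were lost in 9 of 16 alternatives (mouse 1, 2, 5, 7 or 8 left out among them), of Itgb3 in 4 (mouse 2, 5 or 8), of Lamb1 in 3 (mouse 2, 3 or 8) and of Col6a1 in 2 (mouse 2 or 5), and Itgb2 and Itgb4 gained a call under the block. Per kilobase of the longest transcript, 3 neighbouring pairs differed, 6 receptors kept their place and Itga1 made up 5.14% of the collagen-binding level. With 1 mouse left out, 0 to 6 pairs differed, since 6 mice allow no p below 0.0312, and all 10 receptors kept their place.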

Other observations

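For each receptor, the protein-coding genes whose level was most similar over the 7 mice were found among 9583 genes that reached 100 counts in all mice. The points share libraries and dissection, and the values are a description. The most similar gene was Bmp1 for Itgb5 (r = 0.999), Kirrel for Itgav (0.993), Dact1 for Ddr2 (0.991), Ece1 for Itga11 (0.989), Zfp354c for Itgb1 (0.989), Slc36a1 for Itga5 (0.982), Gpld1 for Itga6 (0.978), Cercam for Itga10 (0.972), Samd8 for Itga1 (0.969) and Zfp652 for Itga2 (0.953). The next for Itgb5 were Sema3b and Stab1, for Itga11 Sash1 and Eml1, for Ddr2 Bicc1 and Acta2, and for Itga10 Tcf25 and Mgrn1.

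Among the 10 receptors, the most similar pair was Itga11 and Itgav (r = 0.889 over the 7 mice), both highest in mice 1, 2 and 3. Itgb1 and Itgb5, the beta subunits, had r = 0.034, and Itgb1 and Itga10 had r = -0.358. These too are descriptions over shared libraries.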
